A study of Mus musculus with 4 samples.

Results

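The genes described are those of the receptors that use the common gamma chain: Il7r, Il2ra, Il2rb, Il2rg, Il4ra, Il15ra and Il21r. They were taken by symbol from the feature lists of the single-cell matrices, where all 7 of 7 were found among 32285 genes. The study sorted CD8 T cells positive for CD44 and for CD90.1 from the tumour-draining lymph nodes of C57BL/6 mice, 14 days after tumours were implanted, and ran them on the 10x Genomics 3′ v3.1 kit. The M9 group is labelled high affinity GP33 and the C6M9 group low affinity GP33, and all cells shared the sort, the tissue and the day. Besides that label, the groups differed in cells loaded (16500 and 16500 in M9, 14900 and 11600 in C6M9) and in the number of mice pooled. These cannot be told apart from the label. The GP33 epitope is a peptide of a viral glycoprotein that is widely used as a model antigen for CD8 T cells. There were 2 libraries in each group. Lymph nodes of 10 mice (M9) and 35 mice (C6M9) were pooled, and because the labels call the libraries duplicates without saying how the mice were divided, p-values measure only the spread between these 4 libraries.

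Of 11113 barcodes, 10324 passed the filters on quality. After 277 likely doublets and 123 B cell-like cells were left out, 9924 T cells with 232461226 UMIs (unique molecular identifiers, each standing for 1 captured RNA molecule) remained. The libraries held 4101 and 1199 T cells in M9 and 2889 and 1735 in C6M9, and their median depths ran from 13205 to 21488 UMIs per cell, so that the second library of each group was the deeper. Cd3e, a chain of the T cell receptor complex, was seen in at least 99.65% of T cells in every library. Cd8a was seen in 97.1% to 98.6%, the CD90 gene Thy1 in 61.3% to 82.8% and Cd44 in 63.3% to 81.7%. Each pair of libraries shared 0 to 4 cell barcodes.

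Receptors of this family pair the common gamma chain, made by Il2rg, with a chain that gives the receptor its ligand. Il7r makes the IL-7 receptor alpha chain, which naive and memory T cells need for survival and which T cells usually lower after antigen stimulation and after IL-7 itself. Il2rb makes a signalling chain shared by the IL-2 and IL-15 receptors, and Il2ra (CD25) and Il15ra make the alpha chains that raise the affinity for each of these ligands. Il4ra and Il21r make the chains for IL-4 and IL-21. The gamma chain carries the kinase JAK3 and the partner chains carry JAK1, which activate STAT proteins: mainly STAT5 for IL-2, IL-7 and IL-15, STAT6 for IL-4 and STAT3 for IL-21.

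Il7r and Il4ra were the members that rose in C6M9, to 2.05 and 1.73 times their level in M9 over all T cells. The shared chain Il2rg, the signalling chain Il2rb, and Il2ra, Il15ra and Il21r did not pass the test. Il7r was higher in C6M9 in all 7 cell classes that could be tested. It passed the test in 5 of them, where 0.429% to 20.1% of all genes passed. The memory-like class, where it did not pass, had a log2 difference of 0.54, beside 0.53 in the TCR-activated-like class, where it did. The size of the Il7r difference varied between classes. A small cluster led by Gzma, 3.28% of the T cells, held 40.9% to 80.0% of the Il2ra UMIs of a library. Within it, the cells with 10 or more Il2ra UMIs held less Gzma than the others in every library. These were only 4 and 5 cells in M9, and the pattern was chosen after its values were seen and not tested.

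Levels are UMIs per 1000000 (CPM) after TMM scaling of each library's sum over T cells, and each comparison is C6M9 minus M9 by edgeR's quasi-likelihood test, fitted over all genes with Benjamini-Hochberg adjustment, called at an adjusted p under 0.05. Because reads were counted at 3′ ends, levels are set beside each other for 1 gene across cells and libraries, not between genes. In these sums, fewer cells of a type and less RNA per cell cannot be told apart. Over all T cells, 5.73% of the 13654 genes tested were called, 222 higher and 560 lower in C6M9. Of the members 2 of 7 were called, both higher, and the median difference of the 7 members was 0.23 on the log2 scale against -0.015 over all genes tested.

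The shared chain Il2rg (ENSMUSG00000031304; GRCm38 X:101264378-101268255, minus strand) stood at 238 and 234 CPM in M9 and at 229 and 268 CPM in C6M9. The groups overlapped, and the log2 difference was 0.07 ± 0.10 (SE; adjusted p = 0.702). The annotation places a second protein-coding model, Gm20489, over Il2rg on the same strand, so how reads were shared between them is uncertain.

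**Figure D1:**
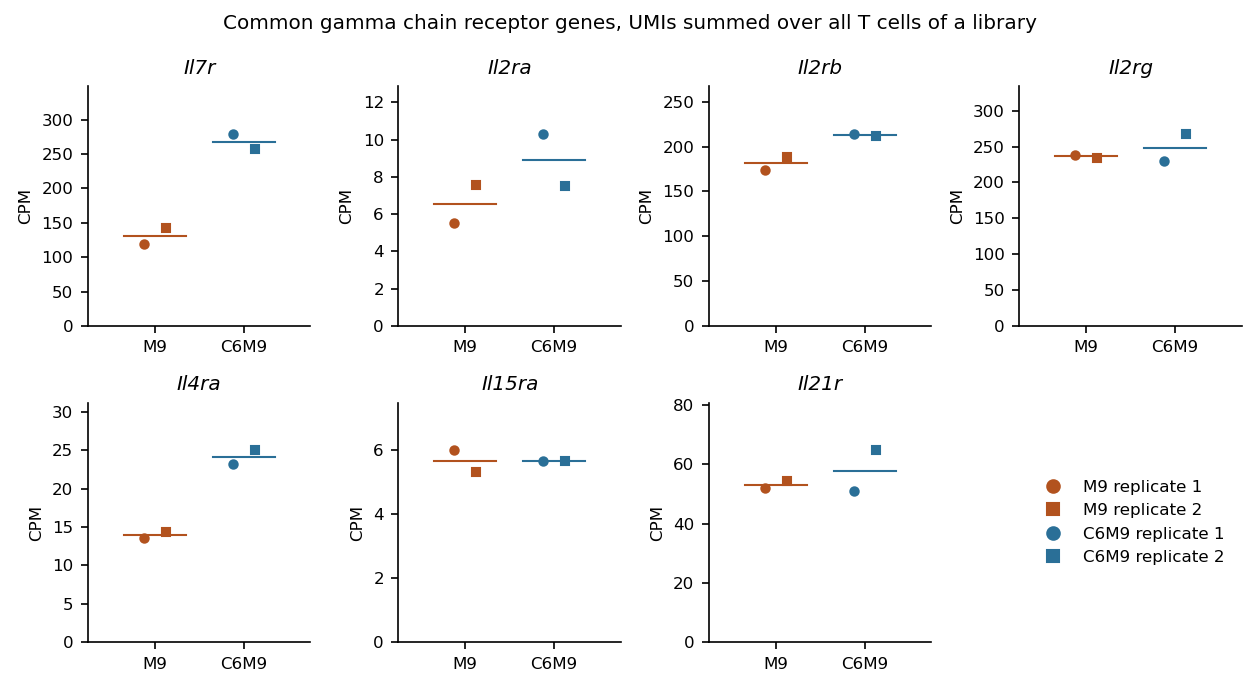
Level of each member in the sum over T cells of each library, in CPM after TMM scaling (y axis, from 0), with 1 point per library and the group mean as a short line. For Il7r the M9 libraries lay at 120 and 142 and the C6M9 libraries at 279 and 257. Il4ra and Il2rb were likewise separated, and Il2ra, Il2rg, Il15ra and Il21r overlapped between groups.

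Il7r (ENSMUSG00000003882; GRCm38 15:9505788-9530176, minus strand) stood at 120 and 142 CPM in the M9 libraries and at 279 and 257 CPM in the C6M9 libraries. The lowest C6M9 library was thus well above the highest M9 library. Group means were 131 ± 15.5 and 268 ± 15.5 CPM (SD, n = 2 each), a log2 difference of 1.04 ± 0.11 (SE; edgeR adjusted p = 0.00262).

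Promoters were read from RefSeq on GRCm38.p6, where 6 of the 7 members had an entry. The 250 bases before the start site are shown for Il7r, because it moved most, and for Il21r, the member with a FOXO motif there. Both are written 5′ to 3′ on the gene's strand. The capitals mark a STAT motif (TTCNNNGAA) in Il7r and the reverse complement of a FOXO motif (GTAAACA) in Il21r.

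Il7r, chr15:9529877-9530126, minus strand: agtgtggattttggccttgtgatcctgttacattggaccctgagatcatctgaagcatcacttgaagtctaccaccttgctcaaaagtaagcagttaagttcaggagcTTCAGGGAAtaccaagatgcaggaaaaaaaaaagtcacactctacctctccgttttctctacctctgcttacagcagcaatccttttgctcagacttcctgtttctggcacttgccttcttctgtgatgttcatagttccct

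Il21r, chr7:125603179-125603428, plus strand: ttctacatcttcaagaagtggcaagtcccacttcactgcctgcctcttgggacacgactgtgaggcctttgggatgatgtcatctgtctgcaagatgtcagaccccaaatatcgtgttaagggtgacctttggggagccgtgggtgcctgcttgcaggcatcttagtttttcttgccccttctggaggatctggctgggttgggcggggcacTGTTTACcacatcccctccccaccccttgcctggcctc

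The Il7r match, TTCAGGGAA, begins 142 bases before the RefSeq start site. That start lies inside the GENCODE model of Il7r given above, whose 5′ end is further upstream, so the printed stretch falls within that model. Among the 32851 RefSeq promoters, each searched on both strands over 250 bases before to 50 after the start, 8.30% held the STAT motif. The Il21r match begins 38 bases before the start, and 3.65% of promoters held the FOXO motif. Other members' windows held an ETS motif (CCGGAA, in 14.9% of promoters) in Il2rg and Il15ra, and an AP-1 motif (TGANTCA, 7.81%) and a TCF motif (CTTTGAA, 5.14%) in Il15ra. No match to these 5 motifs lay in the windows of Il2ra and Il4ra. These are matches of letters and not measured binding sites.

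Il2rb (ENSMUSG00000068227; 15:78479256-78495271, minus strand), the signalling chain for IL-2 and IL-15, stood at 174 and 189 CPM in M9 and at 214 and 212 CPM in C6M9. The groups did not overlap, but the log2 difference of 0.23 ± 0.09 (SE) did not pass the test (adjusted p = 0.153). Il15ra (ENSMUSG00000023206; 2:11705290-11734317, plus strand), the chain that binds IL-15 and can present it to other cells, was low in every library, at 5.99 and 5.31 CPM in M9 and 5.66 and 5.67 CPM in C6M9. Its log2 difference was -0.00 ± 0.12 (SE; adjusted p = 0.992).

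Il2ra (ENSMUSG00000026770; 2:11642807-11693193, plus strand) stood at 5.52 and 7.54 CPM in M9 and at 10.3 and 7.49 CPM in C6M9. The second C6M9 library lay between the M9 libraries, and the log2 difference of 0.47 ± 0.19 (SE) was not called (adjusted p = 0.196). Without M9 replicate 2 the difference was 0.70, and without the Gzma-led cluster its sign turned (-0.68, edgeR adjusted p = 0.183).

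Il4ra (ENSMUSG00000030748; 7:125552120-125579474, plus strand), the IL-4 receptor alpha chain, stood at 13.6 and 14.3 CPM in M9 and at 23.1 and 24.95 CPM in C6M9. The groups did not overlap, and the log2 difference was 0.79 ± 0.09 (SE; adjusted p = 0.00471). B cells also carry Il4ra RNA: 63 B cell-like cells with few T cell transcripts held 65.3 CPM of it. Summed over 16 B cell genes, the T cells held 320 to 388 CPM against 45629 CPM in those cells, so B cell RNA could give at most 0.457 to 0.556 CPM of the Il4ra in a T cell sum. Gm44876 lies antisense to Il4ra, and the strand setting of the counting was not given in the sources used here.

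Il21r (ENSMUSG00000030745; 7:125603429-125633570, plus strand), the IL-21 receptor chain, stood at 52.0 and 54.3 CPM in M9 and at 51.0 and 64.7 CPM in C6M9. The groups overlapped and the log2 difference was 0.12 ± 0.12 (SE; adjusted p = 0.558). Il4ra and Il21r are neighbours on chromosome 7, 23954 bases apart with 0 protein-coding genes between them, as are Il2ra and Il15ra on chromosome 2, 12096 bases apart. Whether the genes of a pair differed from each other was not tested.

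The same contrast was read as the share of T cells with at least 1 UMI of a gene, with every cell reduced to 2000 UMIs so that deeper libraries did not count more cells. An Il7r UMI was seen in 20.03% and 25.7% of M9 cells and in 41.9% and 38.9% of C6M9 cells at that depth. At full depth the shares were 52.0% and 65.0% against 80.9% and 85.5%. Among the 63 B cell-like cells, whose median depth was 4801 UMIs, 2.36% had an Il7r UMI at 2000 UMIs. Il4ra was seen in 2.94% and 3.58% of M9 cells and in 5.05% and 5.11% of C6M9 cells.

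The groups' shares did not overlap for 58% of the 13654 genes tested. Among the members they did not overlap for 3 of 7, a smaller part than that: Il7r, Il4ra and Il2ra, the last with 0.605% and 0.539% against 0.686% and 0.650%. Those of Il2rb (27.2% to 31.4% over the 4 libraries), Il2rg (38.4% to 41.9%), Il15ra (1.18% to 1.32%) and Il21r (9.97% to 12.8%) overlapped. With 2 libraries against 2, an exact two-sided permutation test cannot give a p below 0.333, so these shares carry no call.

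Cells were grouped into clusters without the members among the clustering genes, and clusters were joined into classes by marker genes. The memory-like class was led by Pde2a and held its markers Ccl5 and S1pr1 among its 10 leading genes. The effector-like class was led by killer lectin receptors such as Klre1, the interferon-like class by Ifit3 and Rsad2, and the cycling-like class by Ccnb2 and histone genes. The TCR-activated-like class held a cluster led by Tnfrsf4 (OX40) and a cluster led by Xcl1 and Srm. The Izumo1r cluster had no marker-based name, and the S100a4 and Gzma clusters, each with only 2 effector markers among their 10 leading genes, are also called by their genes. That limit was set for the effector name alone: the memory-like class and the Xcl1 and Srm cluster were named on 2 leading markers each. Class makeup differed between groups: 33.1% of M9 and 4.72% of C6M9 cells were in the Izumo1r cluster, 19.1% and 4.40% in the TCR-activated-like class, and 6.12% and 30.3% in the memory-like class.

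Il7r was high in the S100a4 cluster, the effector-like class and the memory-like class, whose means over the 4 libraries were 392, 384 and 363 CPM (TMM-scaled over all sums of class and library), and in the interferon-like class at 311. It was lower in the Izumo1r cluster (181), the Gzma cluster (125), the cycling-like class (117) and the TCR-activated-like class (115). The ranges of all neighbours in this order overlapped, but the memory-like class exceeded the interferon-like class, and that class the Izumo1r cluster, in all 4 libraries.

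Il2rb was highest in the Gzma cluster, at 293 CPM on the same scale, without overlap with the next, the S100a4 cluster at 217, and lowest in the Izumo1r cluster at 167. Il2rg was highest in the interferon-like class, at 337, without overlap with the memory-like class at 298, and lowest in the Gzma cluster at 183. Il4ra was highest in the memory-like class, at 35.6, and lowest in the Gzma cluster, at 8.51, though each neighbouring pair overlapped. Il21r followed the same ends, from 77.1 in the memory-like class, above the interferon-like class at 63.1 without overlap, to 27.2 in the Gzma cluster, below the cycling-like class at 50.5 without overlap. Il15ra ran from 8.55 in the TCR-activated-like class to 4.32 in the cycling-like class, and all neighbours overlapped.

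**Figure D2:**
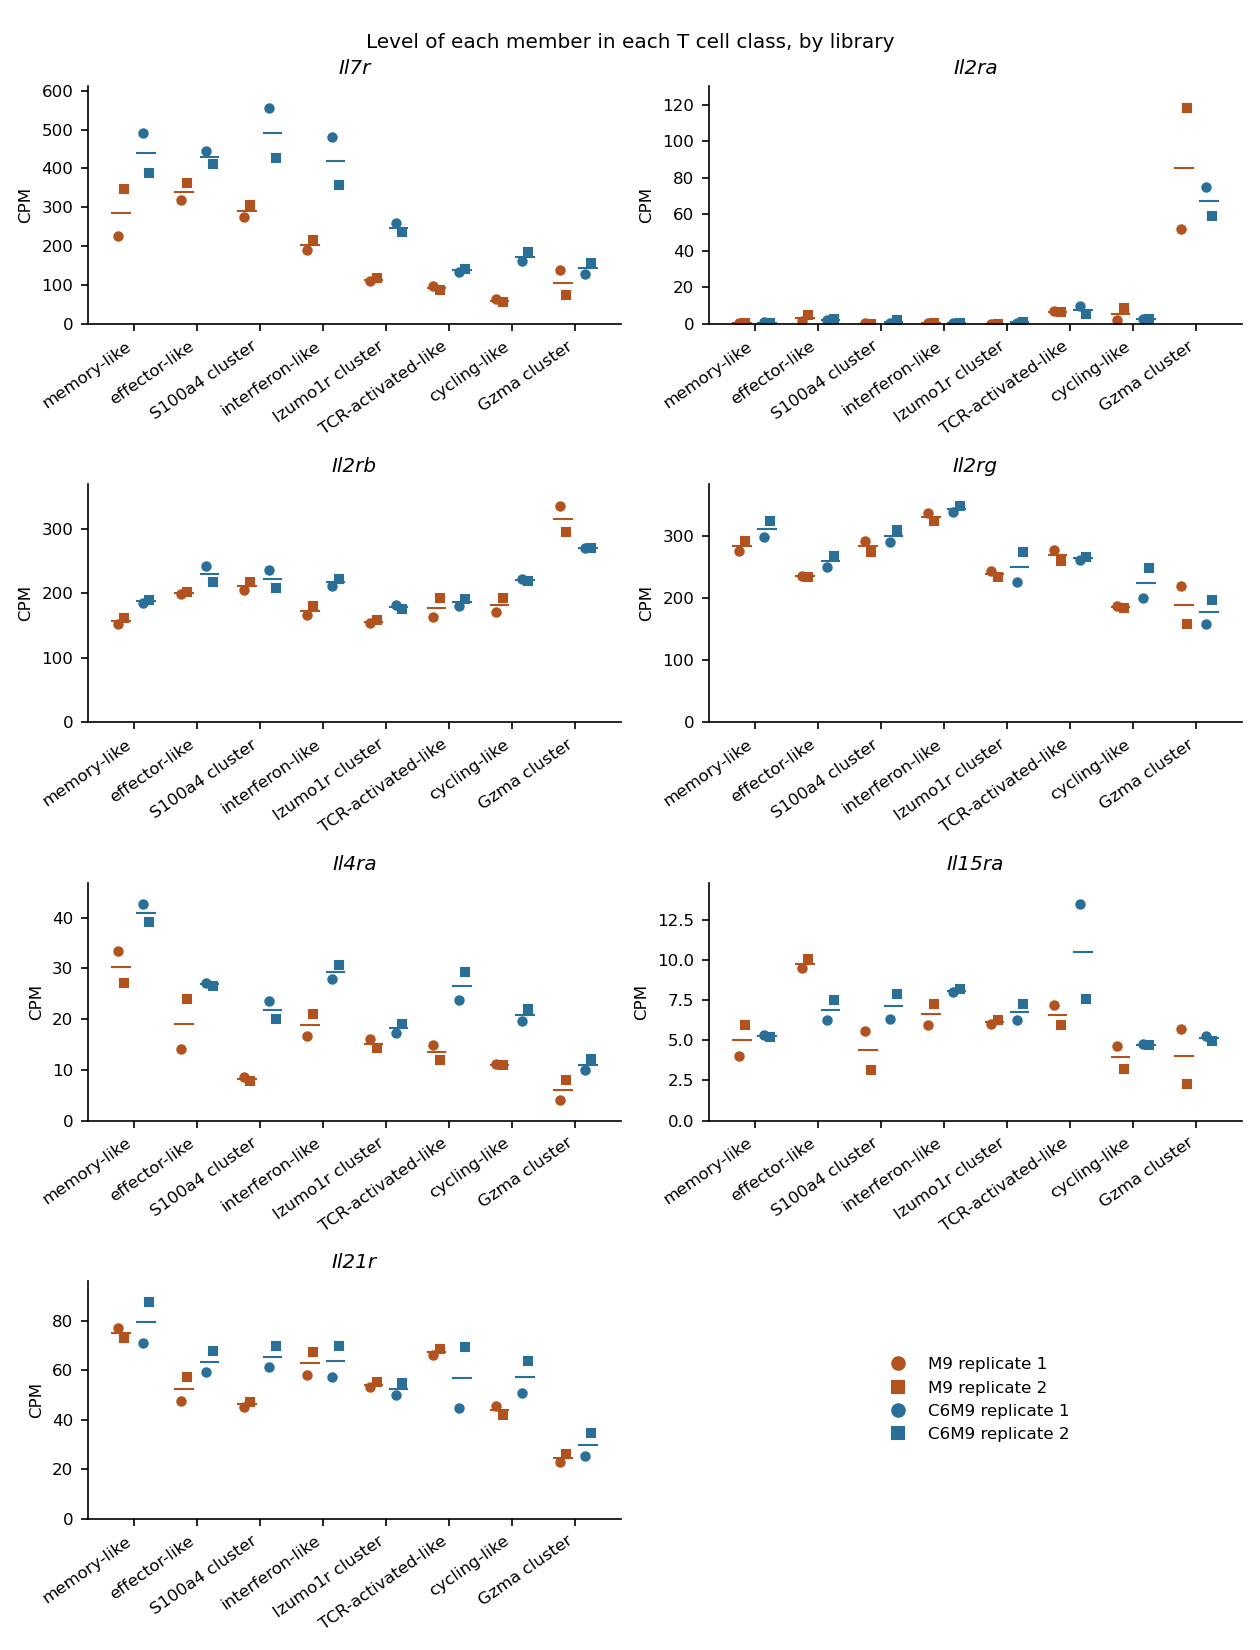
Level of each member in each cell class, in CPM after TMM scaling over all sums of class and library, with 1 point per library (M9 and C6M9 in 2 colours). Il2ra stood apart in the Gzma cluster at a mean of 76.2, against 7.19 in the next class, and Il7r was lowest in the cycling-like and TCR-activated-like classes at 117 and 115.

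Il2ra stood at 51.9 and 118 CPM, scaled in the same way, in the Gzma clusters of M9 and at 75.2 and 59.3 in those of C6M9. The next class, the TCR-activated-like cells, had a mean of 7.19, and no library of it reached the Gzma cluster. The Gzma cluster held only 326 cells, 115 and 12 in M9 and 131 and 68 in C6M9, yet 55.1% and 40.9% of all Il2ra UMIs of the M9 libraries and 80.0% and 75.3% of those of C6M9. An Il2ra UMI was seen in 226 of its 326 cells (69.3%, 95% exact binomial interval 64.0% to 74.3%, counting error only).

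Cells of the Gzma cluster were deep, with a median of 43899 UMIs against 11592 to 35536 in the other classes, and Cd3e and Cd8a were seen in all 326. Cd4 was seen in 2.15% of them and Foxp3, the regulatory T cell factor, in 3.68%. With each cell reduced to 2000 UMIs, 9.30% of the cluster had an Il2ra UMI, against 0.539% to 0.686% of all T cells of a library. In the Izumo1r cluster, the S100a4 cluster, the interferon-like class and the memory-like class, 0.379% to 1.0965% of cells had an Il2ra UMI at full depth. Among the 63 B cell-like cells with few T cell transcripts, whose median depth was 4801 UMIs, 1.59% did (exact binomial interval 0.0402% to 8.53%). That interval, which rests on 1 cell, also holds the shares of the effector-like (3.11%), cycling-like (5.38%) and TCR-activated-like (7.49%) classes. This background is thus too wide to tell the share of any class but the Gzma cluster from it.

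Within classes, the same edgeR test was run on the sums of each class with at least 50 cells in every library, which left out the Gzma cluster. In the Izumo1r cluster 0.429% of genes were called and, of the members, Il7r alone. It stood at 111 and 126 CPM in M9 and at 264 and 244 CPM in C6M9, with no overlap (log2 difference 1.102 ± 0.12 SE, adjusted p = 2.05e-04). In the cycling-like class 1.34% of genes were called, among them Il7r and Il4ra. Il7r stood at 60.0 and 54.2 CPM in M9 and at 152 and 176 CPM in C6M9 (1.52 ± 0.11, adjusted p = 1.30e-04), and Il4ra at 10.39 and 10.45 against 18.3 and 20.97 CPM (0.91 ± 0.13, adjusted p = 0.0085).

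In the interferon-like class, where 1.88% of genes were called, Il7r stood at 196 and 229 CPM in M9 and at 479 and 367 CPM in C6M9 (0.99 ± 0.13 SE, edgeR adjusted p = 6.20e-04). Il4ra there, 17.1 and 22.3 against 27.8 and 31.4 CPM, was not called (0.60, adjusted p = 0.114), except without M9 replicate 2 (0.80, adjusted p = 0.00748) or with no filter on low counts (0.63, adjusted p = 0.0287). In the S100a4 cluster, where 1.09% of genes were called, Il7r (271 and 311 against 537 and 413 CPM; 0.71 ± 0.14, adjusted p = 0.0026) and Il4ra (8.47 and 7.95 against 22.7 and 19.4 CPM; 1.37 ± 0.28, adjusted p = 0.00646) were called. Both calls were lost without C6M9 replicate 1, and the Il7r call also with finer clusters (0.39, adjusted p = 0.334).

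In the TCR-activated-like class as many as 20.1% of genes were called, and the 2 of 7 members called there are read against that share. Il7r was at 95.4 and 91.1 CPM in M9 and at 130 and 139 in C6M9 (0.53 ± 0.11 SE, adjusted p = 0.00265), and Il4ra at 14.8 and 12.3 against 23.0 and 28.7 CPM (0.91 ± 0.18, adjusted p = 0.00225). Different clusters held most of this class in each group: 750 of its M9 cells and 48 of its C6M9 cells were in the Tnfrsf4 cluster, and 363 and 147 in the Xcl1 and Srm cluster. In the Xcl1 and Srm cluster Il7r stood at 30.5 and 29.4 unscaled CPM in M9 and at 98.1 and 113 in C6M9, a wider gap than in the class (1.86, adjusted p = 1.40e-08). Il4ra was not called in that cluster (0.28, adjusted p = 0.58) and Il21r was lower in C6M9 (88.5 and 91.9 against 43.6 and 65.0 unscaled CPM; -0.67, adjusted p = 0.00975). The test of that cluster alone was not planned at the start, and it called 446 of 9241 genes.

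**Figure D3:**
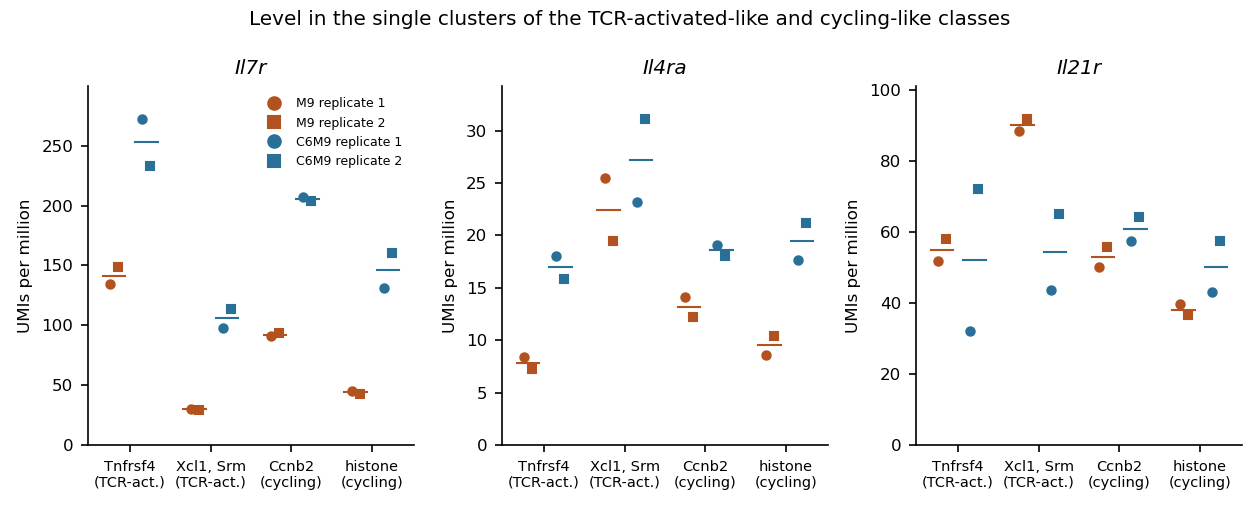
Levels of Il7r, Il4ra and Il21r in unscaled CPM (y axis, from 0), with 1 point per library and the group mean as a short line, in the single clusters of the TCR-activated-like class (Tnfrsf4, and Xcl1 with Srm) and of the cycling-like class (Ccnb2, and histone). In the Xcl1 and Srm cluster the M9 points for Il7r lie at 30.5 and 29.4 and the C6M9 points at 98.1 and 113, below the Tnfrsf4 cluster's 135 and 149 (M9) and 273 and 233 (C6M9).

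In the cycling-like class Il7r was called in each of its clusters. It stood at 90.7 and 93.7 against 207 and 203 unscaled CPM in the Ccnb2 cluster (1.21, adjusted p = 0.0026) and at 45.3 and 42.5 against 132 and 161 in the histone cluster (1.79, adjusted p = 0.000185). Il4ra was called in the histone cluster (1.099, adjusted p = 0.0137) and not in the Ccnb2 cluster (0.53, adjusted p = 0.328). These tests of single clusters were not planned at the start. Of all genes, they called 46 of 10491 in the Ccnb2 cluster and 181 of 11525 in the histone cluster.

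No member was called in the effector-like class, where 0.86% of genes were called, or in the memory-like class, where 0.0199% were. In effector-like cells Il7r stood at 350 and 418 CPM in M9 and at 472 and 445 CPM in C6M9 (0.26 ± 0.12 SE, adjusted p = 0.303), and without M9 replicate 2 it was called (0.39, adjusted p = 0.0292). In memory-like cells it stood at 222 and 351 against 462 and 374 CPM (0.54 ± 0.18, adjusted p = 0.587), and it too was called without M9 replicate 2 (0.92, adjusted p = 0.00288). Il4ra stood at 15.5 and 27.7 against 28.9 and 28.6 CPM in effector-like cells (0.50, adjusted p = 0.275), a difference of 0.89 without M9 replicate 2 (adjusted p = 0.00344) and of 0.07 without M9 replicate 1. In memory-like cells Il4ra stood at 32.6 and 27.4 against 40.2 and 37.6 CPM (0.38, adjusted p = 0.617), and it was called when the members were among the clustering genes (0.91, adjusted p = 0.00577). At an unadjusted p under 0.05, 2 members stood in each of these classes, Il7r and Il4ra. So did 1478 of 10116 genes in the effector-like class and 790 of 10072 in the memory-like class. Over the 7 classes, 8 tests of members were called, 5 of Il7r and 3 of Il4ra, all of them higher in C6M9. Il2rb, Il2rg, Il15ra and Il21r were called by edgeR in no class, with 5 of their 28 tests at an unadjusted p under 0.05. Genes at such a p ran from 790 of 10072 in the memory-like class to 3289 of 10032 in the TCR-activated-like class. Il21r was called in the cycling-like class without C6M9 replicate 1 (0.55, adjusted p = 0.0326) or with no filter (0.39, adjusted p = 0.0196), and in the TCR-activated-like class without C6M9 replicate 2 (-0.64, adjusted p = 0.0116). Under the alternatives, 7 to 12 member tests were called.

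**Figure D4:**
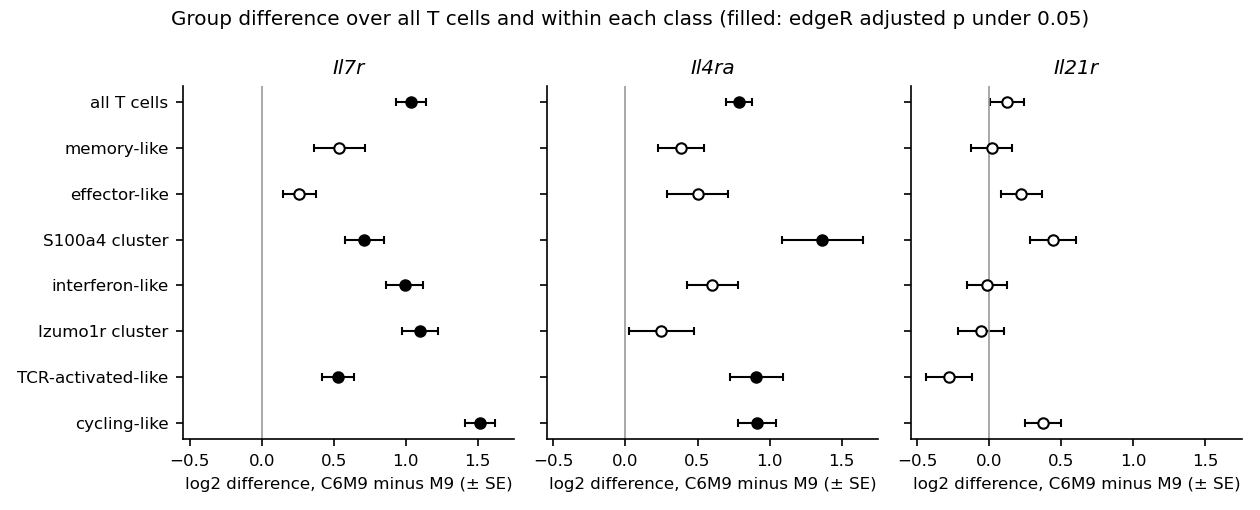
C6M9 minus M9 difference of Il7r, Il4ra and Il21r over all T cells and in each class, on the log2 scale, with bars for the SE and filled points for an edgeR adjusted p under 0.05. Within classes Il7r ran from 0.26 in the effector-like to 1.52 in the cycling-like class, all above 0, and Il21r lay on both sides of 0, from -0.28 to 0.44.

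Whether a difference varied between classes was tested by the product of class and group, for which 18.1% of 11159 genes were called. Of the 7 members, 2 were called: Il7r (edgeR adjusted p = 7.79e-07) and Il21r (adjusted p = 0.00229). Of the classes, Il7r differed most in the cycling-like class, at 1.52, and least in the effector-like class, at 0.26. In the TCR-activated-like class the Il7r difference was 0.53, but 1.86 in its Xcl1 and Srm cluster alone. The part of cluster mix in these class values was not tested. Il21r ran from -0.28 in TCR-activated-like cells (65.3 and 70.8 against 43.0 and 67.7 CPM) to 0.44 in the S100a4 cluster (44.5 and 47.7 against 58.9 and 67.4 CPM), with neither value called by itself. The Il21r call was lost without M9 replicate 2 (adjusted p = 0.0507) or C6M9 replicate 1 (0.0879). The adjusted p was 0.0726 for Il4ra, 0.104 for Il2rg, 0.199 for Il15ra, 0.324 for Il2rb and 0.447 for Il2ra.

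The group difference in unscaled CPM was split exactly into a part from the shares of classes and a part from levels within them. Of the 126 CPM by which Il7r was higher in C6M9, 95.8 CPM (76.0%) came from levels within classes and 30.2 CPM from class shares. The level part still holds any change in the mix of clusters or cell states inside a class, which the split does not separate. The cycling-like class gave 38.2 CPM of the level part, the Izumo1r cluster 15.8 and the interferon-like class 15.7. For Il4ra, levels gave 7.88 of 9.04 CPM (87.2%). For Il2ra the parts had opposite signs, 3.65 CPM from shares and -1.74 CPM from levels, and the Gzma cluster held 1.90% of M9 and 4.23% of C6M9 cells. Of the level part, -1.19 CPM came from the cycling-like class, where the histone cluster of M9 replicate 2 held 95 Il2ra UMIs (11.3 unscaled CPM) against 2.50 unscaled CPM in M9 replicate 1. In M9 replicate 2, 1 cell held 65 of all 257 Il2ra UMIs. For Il2rb the parts were near equal, 10.515 CPM from shares and 10.1 from levels.

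**Figure D5:**
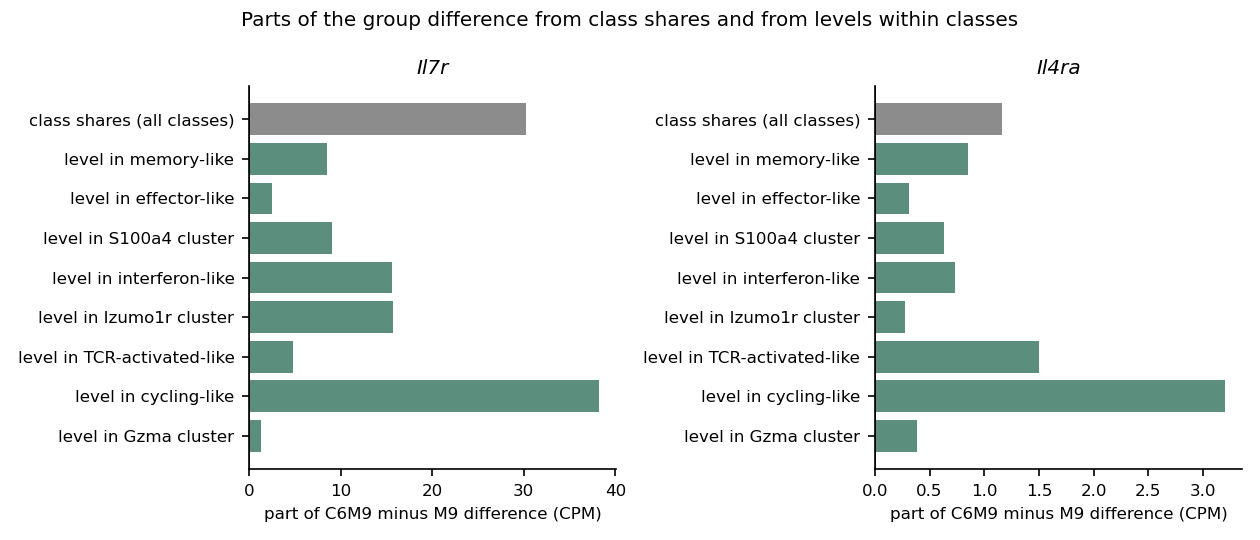
Parts of the C6M9 minus M9 difference of Il7r and Il4ra, in unscaled CPM (x axis, from 0), with 1 bar for the shares of all classes and 1 bar for the level in each class. The level in the cycling-like class is the longest bar for both genes, at 38.2 for Il7r and 3.20 for Il4ra, and the class shares gave 30.2 and 1.16.

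Receptors act as pairs or trimers, so the chains were also counted in the same cell at 2000 UMIs. Il7r and Il2rg were seen together in 8.48% and 11.8% of M9 cells and in 17.3% and 17.5% of C6M9 cells. In all 4 libraries this was 1.07 to 1.11 times the product of the separate shares. Il4ra and Il2rg were seen together in 1.19% and 1.57% of M9 cells and in 2.10% and 2.19% of C6M9 cells, 1.02 to 1.08 times the product. Being near the product, these pair shares add little to the single shares of Il7r and Il4ra.

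Il2rb and Il2rg met in 10.8% and 13.1% of M9 cells and in 11.97% and 12.8% of C6M9 cells, 1.00 to 1.01 times the product. Il21r and Il2rg met in 4.04% and 4.82% against 4.17% and 5.54%, 1.02 to 1.06 times the product. Il2rb and Il4ra met less than the product in every library, at 0.911 to 0.968 times. All 3 chains of the high-affinity IL-2 receptor were seen in 0.0636% to 0.0877% of cells at 2000 UMIs, and at full depth in 3.85% and 3.75% of M9 and 5.50% and 6.57% of C6M9 cells. A cell without a UMI may still hold the RNA, and cells of different classes and depth are mixed in these ratios, so they describe the libraries and carry no test.

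Across the 31 sums of class and library, genes with a mean of at least 20 CPM were ranked by Pearson's r with each member, as a description in which sums share libraries and classes. Il7r was most like Tsc22d3 (GILZ, a FOXO-driven leucine zipper gene; r = 0.92), Vsir (the inhibitory receptor VISTA; 0.91) and Fam78a (0.90). Il2ra was most like Cdk6 (a cell cycle kinase; 0.93), Ero1l (an oxidase of the endoplasmic reticulum; 0.88) and Uck2 (a nucleoside kinase; 0.87). Il2rb was most like Lgals3, Cd48 and Lgals1 (0.86, 0.85 and 0.84), and among the genes most like Il2rg were Ctss and Stxbp3 (0.88 and 0.86). Il4ra was most like Pdk1, Ssbp2 and Npc2 (0.87, 0.86 and 0.80) and Il21r most like Foxp1, a factor of quiescence, Rps28 and Ssbp2 (0.91, 0.88 and 0.87). Il15ra had no close match, the highest being Btg3 at 0.62, then Vti1a and Fbxl5 at 0.61. Among the members, Il4ra and Il21r were most alike (0.79), and Il2ra and Il21r least (-0.69).

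The gene lists that follow are read beside all 13654 genes tested over all T cells. Of those, 5.73% were called, 222 higher and 560 lower. Of the genes that carry the signal on, all 11 listed JAK and STAT genes were tested over all T cells, with 0 higher and 1 lower in C6M9 and a median log2 difference of -0.13. The gene that fell was Jak2 (50.2 and 49.0 against 35.5 and 39.1 CPM; -0.41, adjusted p = 0.0353), a kinase not bound to the gamma chain. The kinases of this family, Jak1 (-0.07) and Jak3 (0.00), were not called. The differences of Stat5a (-0.26, adjusted p = 0.11), Stat5b (-0.28, adjusted p = 0.109) and Stat6 (-0.11, adjusted p = 0.476) did not pass either.

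Of 18 feedback inhibitors of cytokine signals, 0 rose and 2 fell, with a median of -0.07. They were Socs5, a SOCS protein known to restrain IL-4 signals (9.36 and 10.4 against 5.62 and 6.41 CPM; -0.71, adjusted p = 0.0175), and Ptpn11, the phosphatase SHP2 (-0.62, adjusted p = 0.022). Socs1 stood at a difference of -0.04 and was not called. Of 18 genes that STAT5 is known to induce, none was called (median 0.01); among them Cish was at 0.03, Socs2 at 0.26 and the survival gene Bcl2 at -0.21 (adjusted p = 0.194). At an unadjusted p under 0.05 stood 6 of the 18, beside 3273 of all 13654 genes tested, and DESeq2 called 1. Single libraries moved this count in both directions: 4 rose without M9 replicate 1 and 2 fell without M9 replicate 2.

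FOXO1 is a transcription factor that drives Il7r and lymph node trafficking genes in resting T cells. Of 12 genes that depend on it, 3 rose and 1 fell, beside 5.73% called of all genes tested, and the median was 0.20. Those that rose were Tsc22d3 (22.0 and 16.4 against 38.5 and 42.4 CPM; 1.07, adjusted p = 0.00629), the lymph node exit receptor S1pr1 (65.2 and 74.8 against 103 and 110 CPM; 0.60, adjusted p = 0.0129) and Klf2, a factor that drives S1pr1 (289 and 287 against 447 and 387 CPM; 0.54, adjusted p = 0.0245). Tsc22d3 and S1pr1 are among the 10 leading genes of the memory-like class, which held 6.12% of M9 and 30.3% of C6M9 cells, and the part of that shift in the list's difference was not tested. Btla, an inhibitory receptor, fell (39.7 and 40.5 against 26.8 and 25.7 CPM; -0.61, adjusted p = 0.00753). Foxo1 itself was not called (0.09, adjusted p = 0.512).

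Of 22 transcription factors known to act on Il7r, Il2ra or Il2rb, 21 were tested, 2 rose and 3 fell, with a median of 0.02. Besides Klf2, the effector factor Tbx21 (T-bet) rose (11.7 and 13.0 against 20.4 and 16.5 CPM; 0.58, adjusted p = 0.0387). Its relative Eomes, which acts on Il2rb, fell (181 and 165 against 82.4 and 81.8 CPM; -1.07, adjusted p = 0.00109), as did Rel (-0.72, adjusted p = 0.0156) and Nfatc1 (-0.40, adjusted p = 0.0277), which act downstream of the T cell receptor and on Il2ra. Gfi1, a repressor of Il7r, was at -0.45 and not called (adjusted p = 0.198). None of 8 receptor recycling and shedding genes was called by edgeR and 1 by DESeq2. Their median was -0.19, and 3 had an unadjusted p under 0.05, beside 3273 of all 13654 genes tested. Of the genes of these lists called over all T cells, Tsc22d3 and Eomes were also called without each of the 4 libraries in turn. The calls of Klf2, Tbx21, Socs5 and Rel were lost without C6M9 replicate 1 (adjusted p = 0.225, 0.256, 0.122 and 0.0759), those of S1pr1 and Btla without C6M9 replicate 2 (0.058 and 0.0551), and those of Jak2, Ptpn11 and Nfatc1 without either of these.

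Of 12 genes for ligands and related receptor chains, only 4 were high enough to be tested, of which 0 rose and 1 fell. Crlf2, which makes the TSLP receptor chain that pairs with the Il7r chain, fell from 76.3 and 64.0 CPM in M9 to 51.5 and 51.9 CPM in C6M9 (-0.44, adjusted p = 0.0433). The groups did not overlap, but the call was lost without M9 replicate 1, C6M9 replicate 1 or C6M9 replicate 2 (adjusted p = 0.0508 to 0.245). Il9r, the IL-9 receptor chain, was low (0.780 and 1.47 against 0.702 and 0.387 CPM; -0.98, adjusted p = 0.207). Il2 itself stood at 4.85 and 5.84 CPM in M9 and 5.73 and 4.48 CPM in C6M9 (-0.05, adjusted p = 0.878). No UMI of Il13ra1, a partner of Il4ra in other cells, was seen in any T cell, which with a limit of 3 UMIs allows at most 0.0129 CPM over all 4 libraries, counting error only.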

How the data were processed

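Cells were counted with Cell Ranger 6.0.0 against mm10, per the submitters' processing notes. The gene annotation's release, and the handling of introns and strand, were not given in the sources used here. The authors deposited raw UMI counts per gene and cell for 4 libraries. A barcode was kept at 500 genes, 1000 UMIs and a mitochondrial share of 10% or less. Scrublet's own threshold called too few doublets to be used, so the highest-scoring cells were left out at 0.8% per 1000 barcodes. Cells were clustered with scanpy 1.11.5 (2000 variable genes without the members, 30 components, Leiden at 0.6). UMIs were summed per library and tested with edgeR 4.0.16 (TMM, filterByExpr), and DESeq2 1.42.0 was an alternative; the tests were tested on simulated data. Shares at 2000 UMIs are expectations over all draws, used after 1 random draw proved noisy. All 7 members were described, pathway genes were named if called or on a list of key genes, and the 3 genes most like each member by r, except 1 that is not reported here. Members and lists were chosen with earlier results of these data known. T cell sums held 32311461 to 71708108 UMIs per library.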

Additional observations from a re-analysis of the deposited data

Results flagged for a closer look

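The C6M9 minus M9 difference of Il7r differed between cell classes by a test of that difference itself (product of class and group, edgeR adjusted p = 7.79e-07), with the widest gap of a class in the cycling-like class at 1.52 on the log2 scale and the narrowest in the effector-like class at 0.26. It was 0.53 in the TCR-activated-like class but 1.86 in its Xcl1 and Srm cluster alone, and the part of cluster mix was not tested. The Il21r difference also varied between classes (adjusted p = 0.00229), from -0.28 in the TCR-activated-like class to 0.44 in the S100a4 cluster. This call was lost without M9 replicate 2 (adjusted p = 0.0507) or C6M9 replicate 1 (0.0879), and the TCR-activated-like class lay mostly in different clusters in each group. Of all genes, 18.1% were called by this test.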

How the results depend on the processing

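Il7r and Il4ra were called over all T cells under each of 13 alternatives (log2 0.95 to 1.17 and 0.71 to 0.84), and the number of members called was 2 or 3. Il2ra went to -0.68 without the Gzma cluster, an alternative chosen after seeing the data, and was called without cycling-like cells (0.96) and with no filter. Near 0, signs turned. Il15ra was 0.022 by DESeq2, 0.011 with RLE scaling or no filter, 0.0082 at a 5% mitochondrial limit, 0.0090 without the Gzma cluster and 0.0032 with crossed pairing. Leaving out 1 library moved Il15ra from -0.075 to 0.12, Il2rg from -0.036 to 0.18 and Il21r from -0.052 to 0.29. Il21r ran from -0.15 to 0.012 in the Izumo1r cluster, -0.18 to 0.13 in the interferon-like class (0.012 with no filter) and -0.15 to 0.18 in the memory-like class. The number of members whose difference varied between classes changed without 1 library. Members whose shares did not overlap numbered 4 to 6 without 1 library, against 3 with every library kept. Shares overlap less easily with 1 library left in a group, and no count over all genes was set beside these. With every library kept, 58% of all genes tested did not overlap, so the 4 to 6 are not read as a result. The Il7r share gap was 22.5 points at 4000 UMIs and 24.7 unthinned, and the Il4ra gap 3.51 and 13.8.

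With the replicate block, Il7r (1.04, adjusted p = 0.001), Il4ra (0.78, adjusted p = 0.00314) and Il15ra (0.0028) gave the same calls over all T cells, 892 genes were called, and Il7r was called in the memory-like class (0.56, adjusted p = 0.0165). The numbers share no stated source, and replicate deviations correlated at r = -0.115 over 5431 genes; crossing the pairs called 1667 genes and 3 members. Against 782 genes called over all T cells, 1934 were called with no filter, 1882 and 1608 without M9 replicates 1 and 2, 239 and 321 without C6M9 replicates 1 and 2, and 1187 without cycling-like cells. Within classes the counts ran from 17 to 224 in the Izumo1r cluster (42), 32 to 178 in the S100a4 cluster (97), 1300 to 2530 in TCR-activated-like (2018), 138 to 717 in cycling-like (161), 24 to 886 in effector-like (87), 92 to 438 in interferon-like (186) and 7 to 81 in memory-like cells (2), and from 911 to 1868 for the class by group test (2018). With 2 libraries a group, no share could be called.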

Other observations

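Cells of the Gzma cluster with many Il2ra transcripts had few Gzma transcripts, a pattern chosen after its values were seen and not tested. Of the 326 cells, 38 held 10 or more Il2ra UMIs (4 and 5 in M9, 17 and 12 in C6M9). Their median depth was 105439 UMIs, yet their median Gzma count was 3.5 UMIs, against 90.5 in the 100 cells with 0 Il2ra UMIs, whose median depth was 27425. As unscaled CPM summed within a library, Gzma stood at 141 in the cells with 10 or more Il2ra UMIs and at 4316 in the others in M9 replicate 1. The values were 1880 and 2399 in M9 replicate 2, 111 and 1629 in C6M9 replicate 1, and 26.5 and 1603 in C6M9 replicate 2. Gzma was thus lower beside high Il2ra in each of the 4 libraries, with the least gap in the library that had only 12 cells in the cluster. Gzmb, a related granzyme gene, did not show the same order in every library: 623 and 630, 1012 and 559, 224 and 439, and 142 and 405 CPM. The proliferation gene Mki67 was seen in nearly every cell of the cluster, and stood at 470 CPM in the 38 cells against 720 in those with 0 and 646 in those with 1 to 9 Il2ra UMIs. Cd8a and Cd3e were also lower, at 327 and 385 CPM in the 38 cells against 416 and 516 in those with 0. Foxp3 was seen in 2 of the 38. The Il2ra UMIs of the whole data were concentrated in the same way: the top 1% of cells held 56.6% to 77.4% of them in each library, against 8.03% to 10.2% for Il7r.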
